A study of Homo sapiens with 10 samples.

Results

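The nuclear genes of the mitochondrial respiratory chain were followed in SW620 cells, a line derived from a metastasis of a human colon adenocarcinoma, and in derivatives of it recovered from metastases. A member was any gene listed for a row of the deposited array table with a single symbol that starts with NDUF, UQCR or ATP5, or with COX and a digit, or that is SDHB, SDHC, SDHD, SDHAF1 or SDHAF2. The rule reads symbols and no measured value. It gave 22 genes of the 4713 with a named row, measured by 151 of 54806 such rows. Of the 22 genes 21 lie on chromosomes 1, 10, 11 and 12, which hold 4660 of the 4713, and ATP5J2 lies on chromosome 7. The other subunits of the chain are not analysed here.

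Complexes I to IV of the inner mitochondrial membrane pass electrons from NADH and succinate to oxygen, and complex V, the ATP synthase, uses the resulting proton gradient to make ATP. Complex I oxidises NADH, complex II oxidises succinate and is also an enzyme of the citric acid cycle, complex III passes electrons from ubiquinol to cytochrome c, and complex IV reduces oxygen. Colon cancer cells in culture draw ATP from this chain and from glycolysis side by side, and inherited loss of complex II subunits is a known cause of paraganglioma.

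The parental group held 4 arrays of SW620 cells. The liver group held 3 arrays and the lung group 3 arrays of SW620 cells that had formed metastases in that organ of balb/c nude mice and were afterwards taken out and grown in culture. All 10 came from cultured human cells of the same line in the same serum-containing DMEM medium, and the labels name no deleted gene and no treatment. The parental arrays carry the mouse strain tag of the derivatives (balb/c), though passage through a mouse is described for the derivatives. The labels call the arrays of a group biological replicates but do not say whether these are separate metastases, clones or culture dishes, and the p-values rest on the spread among arrays, part of which may be technical. A change in RNA per cell and a change in the mix of cells cannot be told apart in such bulk RNA. Values are log2 expression, and the value of a gene is the mean of its rows; 95% intervals and adjusted p-values come from limma fitted to all 4713 genes, and a gene is called at an adjusted p under 0.05.

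Parental array 4 stood apart from the other parental arrays. It lay outside the range of parental arrays 1 to 3 in 15 of the 22 members, and in 13 of these 15 it lay on the side of the lung mean. Over all 4713 genes it lay outside in 72.2%, and 78.0% of these lay on the lung side. Parental arrays 1 to 3 correlated at 0.9962 to 0.9975 with each other over all genes. Parental array 4 correlated at 0.9889 to 0.9908 with these, and less, at 0.9843 to 0.9874, with the lung arrays. Results in the lung derivatives are therefore also given against this array alone, as a fit with a term that sets parental array 4 and the lung arrays against the other 6, and without this array. The epithelial keratins KRT8 and KRT18 were bright in every array, between 12.71 and 12.91 and between 11.50 and 11.78. Of the 8 colon epithelial markers 4 were called lower and 0 higher in each kind of derivative. Of all genes 3.5% were called lower in liver and 17.3% in lung derivatives. The 4 were ELF3 (-0.51 in liver and -0.25 in lung), EPHB2 (-0.57 and -0.48), the stem cell marker LGR5 (-0.81 and -1.27) and TSPAN8 (-1.12 and -0.43). Of 6 lung epithelial markers 3 were called higher in lung derivatives (mean of the list 7.26 to 7.42 in parental and 7.49 to 7.61 in lung arrays), as were 4 of 10 leukocyte markers (6.53 to 6.60 and 6.87 to 6.92), against 12.9% of all genes. The leukocyte marker LYZ was also called higher in liver derivatives (0.97). Of 9 hepatocyte markers 1 was called in lung derivatives, RBP4 (-0.70), and 0 in liver derivatives. Of 4 stromal markers LUM was lower in both (-1.97 in liver and -0.62 in lung) and DCN higher in lung (0.26). Of 3 endothelial markers 0 were called. The part of these markers in the results below was not tested.

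Differences in the genes of the chain were small in both kinds of derivative, with SDHC in lung derivatives as the called exception. In liver derivatives 0 of 22 members were called by limma, against 7.83% of all genes (4.33% higher and 3.5% lower), and 1 of 22 had an unadjusted p under 0.05, against 18.5% of all genes. In lung derivatives 1 member, the complex II gene SDHC, was called higher, against 12.9% of genes called higher, and 0 were called lower, against 17.3% (30.1% in both directions together). At an unadjusted p under 0.05 these were 6 of 22 members, against 42.3% of genes. Between lung and liver derivatives SDHC was again the 1 member called higher, against 8.02% of genes, and 0 were lower, against 11.9% (19.9% together), with 7 of 22 at an unadjusted p under 0.05, against 38.5%. The median size of the change, whatever its sign, was 0.041 log2 units over the members and 0.086 over all genes in liver derivatives, 0.082 and 0.165 in lung derivatives, and 0.091 and 0.158 between the derivatives. The members were bright genes, with a median level of 11.59 against 8.30 for all genes, and their standard errors were smaller too (median 0.065 against 0.085 log2 units in lung derivatives), so the small sizes are a description and were not tested.

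The intervals put a limit on uncalled changes in the mean of a gene's rows. They do not bound single rows or other row summaries. By its brightest row NDUFA4L2 was 1.055 higher in lung derivatives than in parental cells. Against parental cells no member's 95% interval in liver derivatives went below -0.28 or above 0.27 log2 units. In the 21 members other than SDHC the intervals in lung derivatives stayed between -0.36 (NDUFC2) and 0.36 (ATP5F1), and between the derivatives from -0.37 to 0.41 for the same genes. The liver and lung comparisons share the parental arrays.

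**Figure D1:**
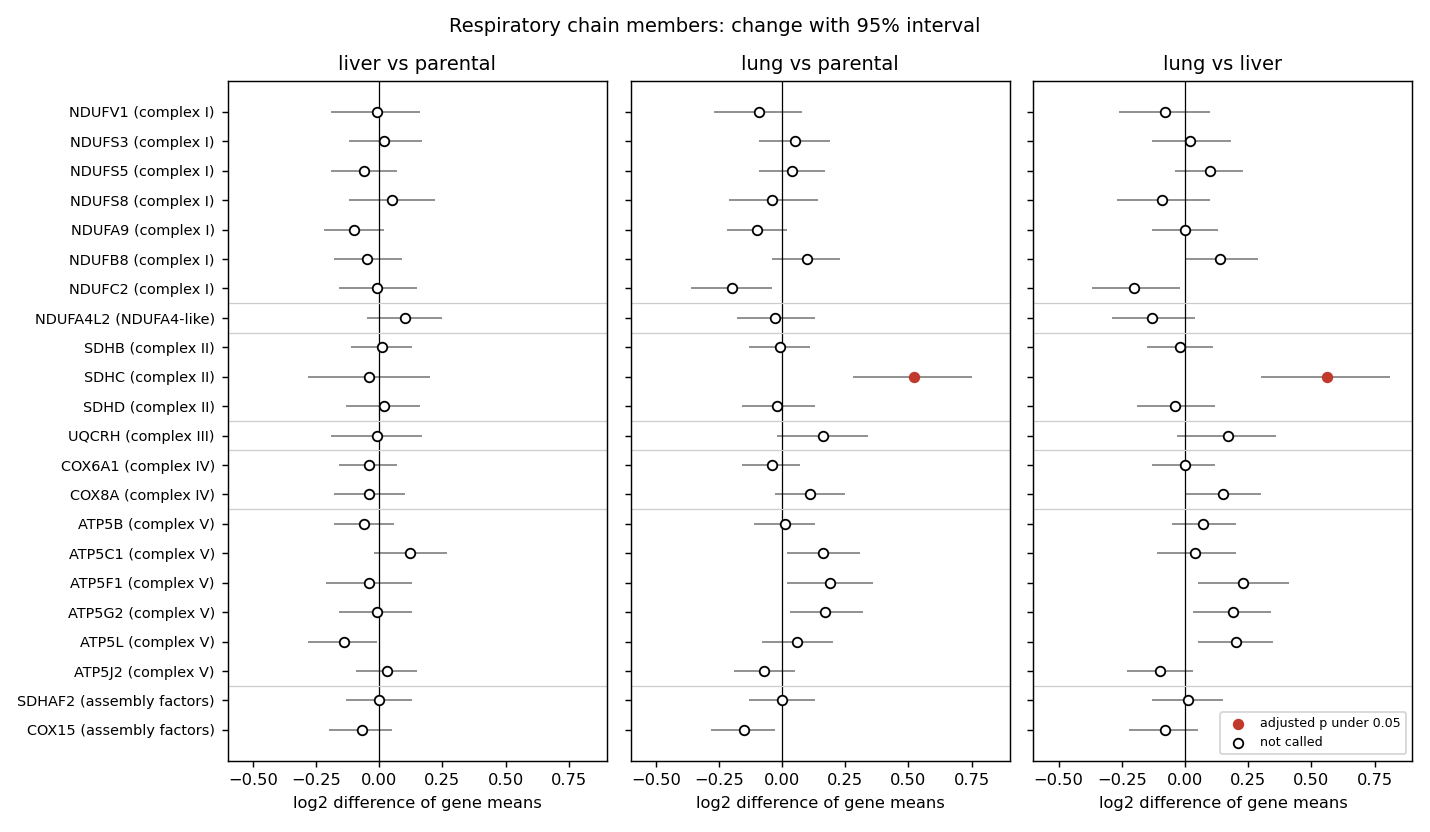
Log2 difference of gene means with its 95% interval (bars) for the 22 members, ordered by complex, in the 3 comparisons. SDHC is the only filled point, at 0.52 in lung against parental and 0.56 in lung against liver, and every liver point lies between -0.14 and 0.12.

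**Figure D2:**
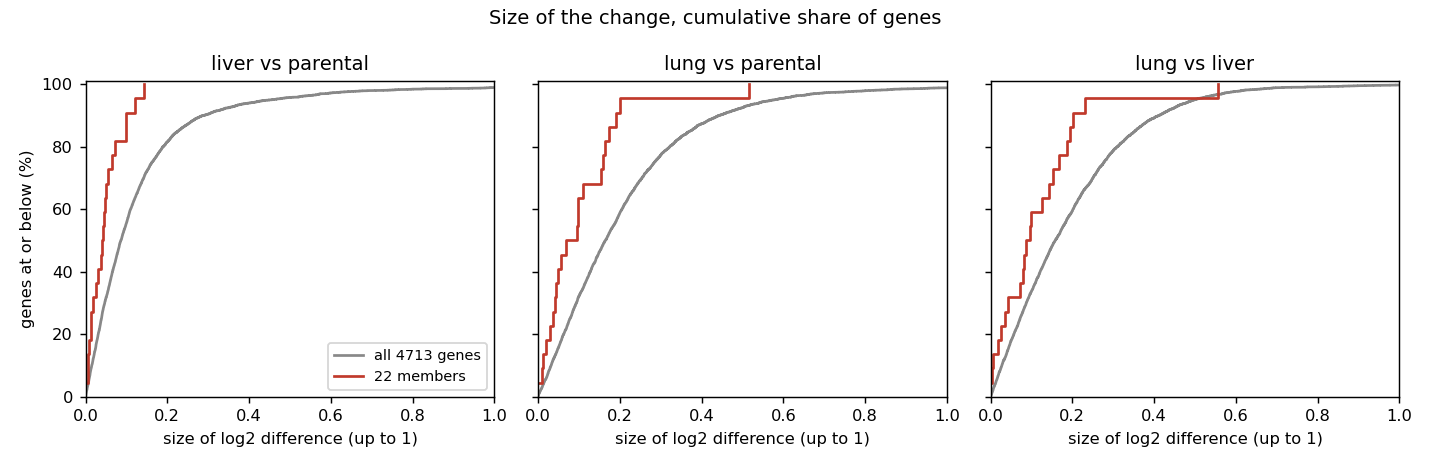
Cumulative share of genes (vertical axis, percent) by the size of their log2 difference (horizontal axis, shown up to 1) for all 4713 genes and for the 22 members. In the liver comparison all 22 members lie under 0.25 against 87.2% of genes, and in the lung comparison 21 of 22 against 69.2%.

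Genes of the chain often carry sites for the ETS factor GABP and for the factor NRF1 in their promoters, and these were looked for in the 250 bases before the RefSeq start (GRCh38.p14) on both strands. The table held promoters for 17 members and did not list SDHC, NDUFC2, NDUFS5, ATP5B and ATP5J2. The ETS letters CCGGAAG occurred in 8 of 17 members and in 10.2% of 27305 genes, and the NRF1 palindrome in ATP5C1 and SDHD and in 1.3% of genes. The hypoxia response core ACGTG was in 4 of 17 members and 21.7% of genes, while the ESRRA letters TCAAGGTCA and the YY1 letters AAGATGGCG matched 0 members and 0.4% and 0.8% of genes. Each motif was counted on its own, whether or not it overlapped another. The following promoters of members with an ETS or NRF1 match, SDHD (chr11:112086623-112086872, plus strand), UQCRH (chr1:46303448-46303697, plus strand), COX8A (chr11:63974370-63974619, plus strand) and ATP5C1 (chr10:7787927-7788176, plus strand), are shown because their genes stand for complexes II to V; matches to the ETS letters (in SDHD, UQCRH and COX8A, on the reverse strand) and to the NRF1 palindrome (in SDHD and ATP5C1) are in capitals.

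SDHD: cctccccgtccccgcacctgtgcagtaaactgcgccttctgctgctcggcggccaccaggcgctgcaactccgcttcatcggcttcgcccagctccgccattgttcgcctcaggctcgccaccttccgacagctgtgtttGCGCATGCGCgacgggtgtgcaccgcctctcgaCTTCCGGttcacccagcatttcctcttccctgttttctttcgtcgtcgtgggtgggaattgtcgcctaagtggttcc

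UQCRH: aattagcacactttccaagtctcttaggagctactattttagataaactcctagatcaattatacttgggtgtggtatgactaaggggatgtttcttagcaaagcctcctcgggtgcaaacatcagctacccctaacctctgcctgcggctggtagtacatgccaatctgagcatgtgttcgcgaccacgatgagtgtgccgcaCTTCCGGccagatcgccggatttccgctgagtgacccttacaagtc

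COX8A: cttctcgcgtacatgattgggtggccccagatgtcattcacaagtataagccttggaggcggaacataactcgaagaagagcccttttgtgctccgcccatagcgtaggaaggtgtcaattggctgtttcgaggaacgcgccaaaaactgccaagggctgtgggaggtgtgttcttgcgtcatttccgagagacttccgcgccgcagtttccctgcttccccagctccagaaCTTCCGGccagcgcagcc

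ATP5C1: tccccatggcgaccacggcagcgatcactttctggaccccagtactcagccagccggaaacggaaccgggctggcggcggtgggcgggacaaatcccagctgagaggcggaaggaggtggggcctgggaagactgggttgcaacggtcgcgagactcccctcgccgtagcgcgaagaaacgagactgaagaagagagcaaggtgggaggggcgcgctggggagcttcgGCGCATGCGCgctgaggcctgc

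Neither the 8 members with the ETS letters nor the 9 with a promoter and without them held a gene called by limma in the 3 comparisons. Of all genes 7.83% (liver), 30.1% (lung) and 19.9% (lung against liver) were called. SDHC, the only called member, had no listed promoter, so these counts cannot tell the 8 from the 9. In lung derivatives the changes of the 8 ran from -0.15 to 0.16 log2 units with a median of -0.005. Those of the 9 ran from -0.10 to 0.19 with a median of 0.057. In liver derivatives the ranges were -0.07 to 0.02 and -0.14 to 0.12. A match is only a match of letters in this window.

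In complex I the 7 measured subunits were NDUFV1, which binds the flavin where NADH is oxidised, the peripheral arm subunits NDUFS3 and NDUFS8, of which NDUFS8 holds iron-sulphur clusters, the accessory subunits NDUFS5, NDUFA9, NDUFB8 and NDUFC2, and none of them was called by limma in any comparison (smallest unadjusted p 0.0181, NDUFC2 in lung derivatives; between the derivatives NDUFC2 and NDUFB8 were also under 0.05, at 0.0283 and 0.0487). NDUFC2 showed the largest difference of the complex in lung derivatives. Its values were 11.27, 11.23, 11.15 and 11.07 in parental arrays 1 to 4, 11.10, 11.17 and 11.26 in liver arrays and 11.02, 11.05 and 10.87 in lung arrays. All 3 lung arrays lay below all other arrays, by a mean of 0.20 log2 units under parental cells (SE 0.07, adjusted p = 0.0568 by limma). The difference from parental array 4 alone was -0.09. The direction rested on the mean of rows: by the median of its rows NDUFC2 was 0.07 above parental and 0.21 above liver cells, and by its brightest row -0.07 and -0.04, none of them called.

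NDUFA9, an accessory subunit at the junction of the arms of complex I, had the largest difference of the complex in liver derivatives. It stood at 11.87, 11.83, 11.80 and 11.86 in parental, 11.78, 11.73 and 11.71 in liver and 11.75, 11.77 and 11.70 in lung arrays. Both kinds of derivative lay below every parental array, by 0.10 log2 units each (SE 0.05, adjusted p = 0.384 and 0.187 by limma). All 8 of its rows were lower in liver than in parental cells, by 0.05 to 0.18, and none of these was called.

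In 3 other subunits of complex I parental array 4 was the lowest of the parental arrays. NDUFV1 was at 11.83, 11.87 and 11.84 in parental arrays 1 to 3 and at 11.61 in array 4, against 11.64 to 11.76 in lung and 11.68 to 11.86 in liver arrays. NDUFS8 was 0.23 and NDUFS3 0.19 lower in array 4 than in the mean of the other parental arrays. The remaining group differences of these genes, and those of NDUFS5 and NDUFB8, ran from -0.09 to 0.14 log2 units over the 3 comparisons. The mean of the 7 subunits was 11.45 ± 0.05 in parental (SD, n = 4), 11.43 ± 0.02 in liver (n = 3) and 11.42 ± 0.03 in lung arrays (n = 3), and the groups overlapped.

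NDUFA4L2, a relative of the complex IV subunit NDUFA4 that hypoxia is known to induce, is counted apart from complex I. As the mean of its 11 rows it was at 8.09, 8.0, 8.02 and 8.06 in parental, 8.28, 8.10 and 8.05 in liver and 7.95, 8.10 and 7.98 in lung arrays. The groups overlapped, with differences of 0.10 (liver) and -0.03 (lung). This mean joined rows that went opposite ways. Row 2, in file order, was at 6.52, 6.08, 6.05 and 5.94 in parental, 6.83, 5.95 and 6.51 in liver and 4.61, 4.90 and 4.70 in lung arrays, lower in every lung array (-1.41, adjusted p = 0.00646 by limma over all rows). It was a dim row, with a mean of 5.81 under the 25th percentile of 6.8068. Row 5, with a mean of 7.47, was also lower in lung derivatives than in parental cells (-1.22, adjusted p = 0.0399 by limma over all rows). Row 7 was at 9.60, 9.74, 9.67 and 9.91 in parental and 10.25, 10.57 and 10.55 in lung arrays, higher in every lung array (0.72, adjusted p = 0.00991 by limma over all rows). Row 11, the brightest, was at 10.11, 10.24 and 10.42 in parental arrays 1 to 3 but at 11.71 in array 4, beside 10.18 to 10.23 in liver and 11.95, 11.41 and 11.66 in lung arrays. In that row parental array 4 lay among the lung arrays and not among the other parental ones.

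**Figure D3:**
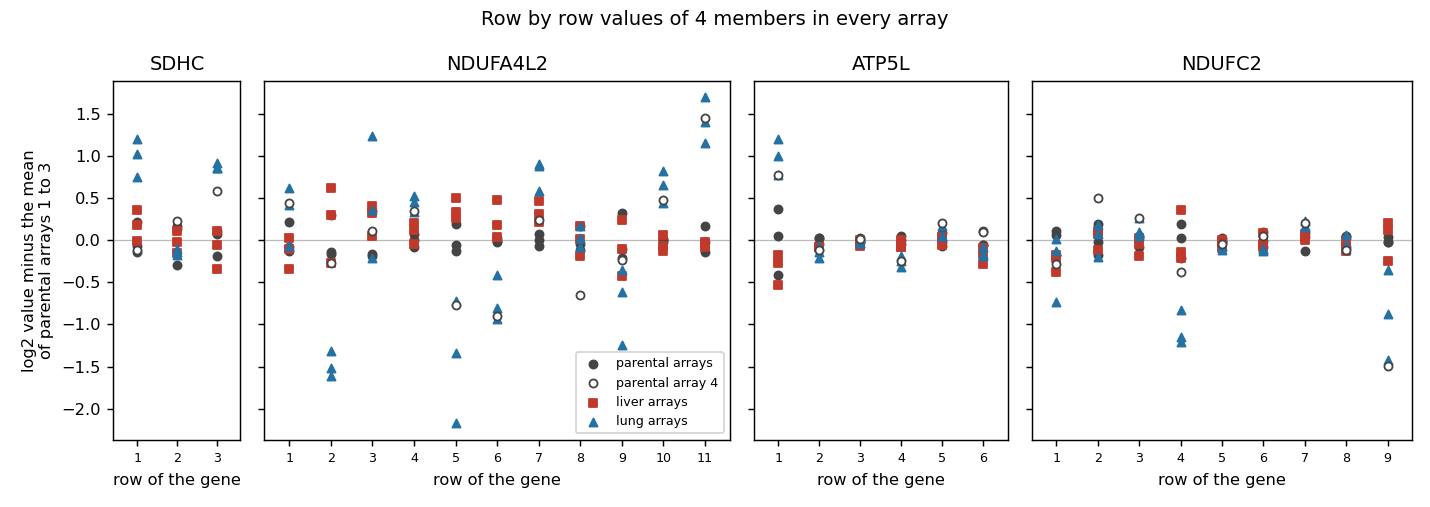
Log2 value minus the mean of parental arrays 1 to 3 (vertical axis) for each row of 4 members in file order (horizontal axis), with 1 symbol per array. Lung arrays rise in rows 1 and 3 of SDHC and not in row 2, go both ways among the rows of NDUFA4L2, and differ in 1 called row each of ATP5L and NDUFC2; parental array 4 (open circle) lies at 1.46 in row 11 of NDUFA4L2.

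Complex II gave the only called member. SDHC encodes a membrane anchor of succinate dehydrogenase and, with SDHD, forms its ubiquinone site. It was at 8.12, 8.21, 7.85 and 8.29 in parental arrays, at 8.05, 8.25 and 7.93 in liver arrays and at 8.71, 8.53 and 8.64 in lung arrays. Every lung array lay above every other array, while the liver and parental arrays overlapped. SDHC was 1.43-fold higher in lung derivatives than in parental cells (0.52 log2 units, SE 0.11, adjusted p = 0.00672 by limma) and 1.47-fold higher than in liver derivatives (0.56, SE 0.12, adjusted p = 0.0156 by limma). The change in liver derivatives was -0.04 (SE 0.11, interval -0.28 to 0.20).

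The higher level of SDHC rested on 2 of its 3 rows. Row 1 was at 6.91, 7.19, 6.83 and 6.86 in parental, 7.16, 7.33 and 6.97 in liver and 8.18, 7.73 and 8.0 in lung arrays (1.02 over parental, adjusted p = 0.00537 by limma over all rows). Row 3 was at 7.73, 7.69, 7.43 and 8.20 in parental, 7.56, 7.73 and 7.27 in liver and 8.53, 8.47 and 8.47 in lung arrays (0.72, adjusted p = 0.0321). Row 2, the brightest, was at 9.71, 9.74, 9.28 and 9.80 in parental, 9.42, 9.68 and 9.55 in liver and 9.43, 9.40 and 9.47 in lung arrays (-0.20, adjusted p = 0.340). In the first row parental array 4 sat with the other parental arrays, and in the third it lay between them and the lung arrays. By its brightest row alone the difference of SDHC had the opposite sign and was not called.

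Against parental array 4 alone the gene mean of SDHC was 0.34 log2 units higher (SE 0.15, adjusted p = 0.205 by limma with the array term), and without that array the difference was 0.57 (adjusted p = 0.00265 by limma). The call against parental cells stood when any single array was left out. The call against liver derivatives was lost without liver array 2, liver array 3 or lung array 1 (adjusted p = 0.0501, 0.0564 and 0.0554 by limma). It was also lost with the array term (0.33, adjusted p = 0.604 by limma). That term links lung and liver arrays only through parental array 4, and with it 4 of all 4713 genes were called. RefSeq names 5 pseudogenes of SDHC, and signal from near-identical copies cannot be told apart here. Of the 22 members 14 have such named copies.

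SDHB, the iron-sulphur subunit of complex II, and SDHD, the other anchor, had overlapping groups. SDHB lay between 11.45 and 11.55 in parental, 11.50 and 11.54 in liver and 11.46 and 11.53 in lung arrays. SDHD lay between 10.97 and 11.13, 11 and 11.11, and 10.98 and 11.11 in the same order. All differences lay between -0.04 and 0.02 log2 units. The mean of the 3 measured genes of complex II was 0.161 higher in lung derivatives than in parental cells. Over liver derivatives it was 0.167 higher, and in both comparisons SDHC was the 1 gene above 0. Of the 6 rows of SDHD 1 was called lower in lung derivatives (-0.81, adjusted p = 0.0424 by limma over all rows) against 4 rows above 0. SDHAF2, which helps attach flavin to succinate dehydrogenase, overlapped between all groups (differences between -0.002 and 0.006).

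**Figure D4:**
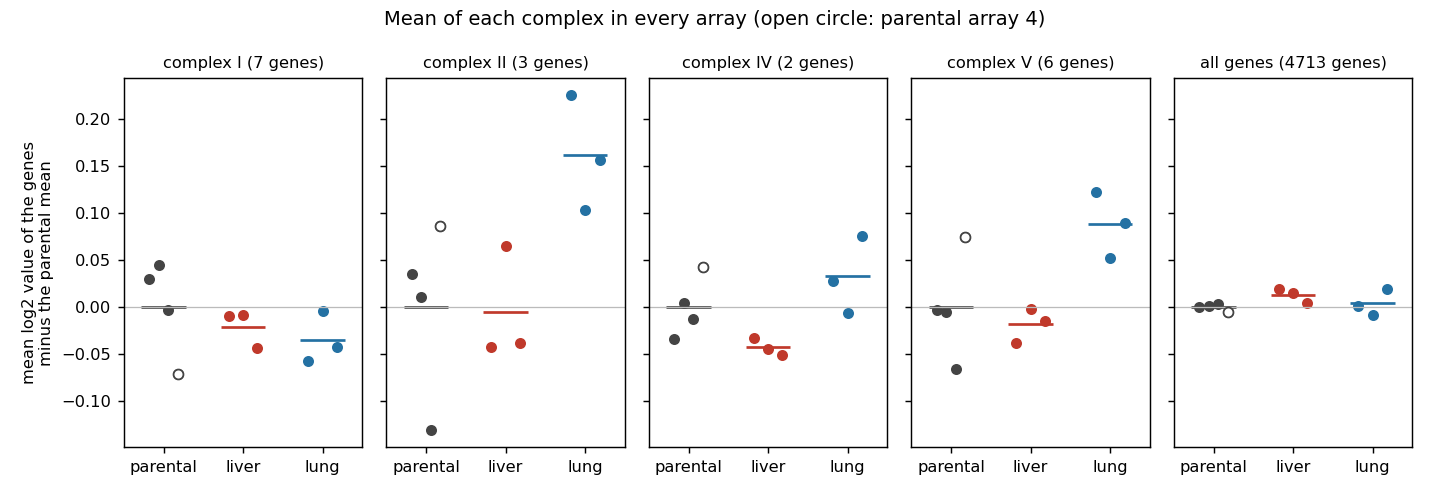
Mean log2 value of the measured genes of a complex in each array, minus the mean of the parental arrays, with group means as lines. In complex II only SDHC had a higher mean in lung than in parental arrays. In complex V the lung arrays lie from 0.05 to 0.12 and parental array 4 (open circle) at 0.07; the mean of all 4713 genes stays within -0.01 to 0.02.

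Complex III was measured through UQCRH, the hinge protein that binds cytochrome c1. It stood at 12, 11.96, 11.92 and 12.28 in parental, 12.04, 12.03 and 12.03 in liver and 12.20, 12.17 and 12.23 in lung arrays. The lung arrays lay above the liver arrays (0.17, SE 0.09, adjusted p = 0.189 by limma), and parental array 4 lay above all of them, so that with the array term the difference turned to -0.155; by the brightest row it was -0.053. Without that array UQCRH was among the members called higher in lung derivatives.

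Complex IV was measured through COX6A1 and COX8A, small nuclear-encoded subunits of cytochrome c oxidase. COX8A was at 12.81, 12.90, 12.85 and 13.02 in parental, 12.84, 12.87 and 12.84 in liver and 13, 12.97 and 13.05 in lung arrays. Its lung arrays lay above its liver arrays (0.15, SE 0.07, adjusted p = 0.123 by limma) and overlapped the parental ones through array 4; with the array term the difference was -0.015. All 4 of its rows were above 0 in lung against liver, by 0.08 to 0.21, and none was called. COX6A1 stayed between 12.56 and 12.66 in all 10 arrays, with differences from -0.05 to -0.003.

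COX15, an enzyme that makes the heme A of complex IV, had the largest difference of the 2 assembly factors in each comparison. It was at 10.89, 10.95, 10.87 and 10.88 in parental, 10.83, 10.83 and 10.82 in liver and 10.66, 10.81 and 10.76 in lung arrays. Both kinds of derivative lay below all parental arrays, by 0.07 (adjusted p = 0.586) and 0.15 log2 units (SE 0.06, adjusted p = 0.0617 by limma). Of its 12 rows 3 were called lower in lung derivatives, by 0.39, 0.48 and 0.64, and 0 higher. Parental array 4 lay within the range of the other parental arrays, and the lung mean was 0.14 below it.

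Complex V held 5 of 6 genes with a higher mean in lung than in parental cells, and no called member. The catalytic beta subunit ATP5B (now ATP5F1B) stayed between 12.30 and 12.45 in all 10 arrays, while ATP5C1 (ATP5F1C), the central stalk, ATP5F1 (ATP5PB), the peripheral stalk, ATP5G2 (ATP5MC2), a gene of the proton-carrying c ring, and ATP5L (ATP5MG), subunit g, each had a higher mean in lung than in parental and liver cells. ATP5F1 was at 10.91, 10.79, 10.66 and 10.90 in parental, 10.79, 10.80 and 10.73 in liver and 11.11, 10.98 and 10.93 in lung arrays. All lung arrays lay above all others, by 0.19 over parental (SE 0.08, adjusted p = 0.0792 by limma) and 0.23 over liver cells (SE 0.08, adjusted p = 0.0640). Against parental array 4 alone the lung mean was 0.10 higher. This came from dim row 1 (mean 6.73), which was 1.07 higher, while the other rows ran from -0.27 to 0.07. By the brightest row the differences from parental and liver cells were 0.08 and 0.01, neither called. With dim rows left out they were 0.19 and 0.31 (adjusted p = 0.146 and 0.0444 by limma).

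ATP5G2 was at 11.40, 11.56, 11.56 and 11.65 in parental, 11.58, 11.52 and 11.49 in liver and 11.71, 11.71 and 11.73 in lung arrays. Its lung arrays lay above all others, by 0.17 over parental cells (SE 0.07, adjusted p = 0.0700 by limma). The lung mean was 0.06 above parental array 4. Over parental cells ATP5G2 was 0.01 higher by the median of rows and 0.18 by the brightest row, neither called. ATP5L showed the largest difference of the complex in liver derivatives, at 11.98, 11.94, 11.83 and 12.04 in parental, 11.78, 11.84 and 11.79 in liver and 12.03, 11.96 and 12.02 in lung arrays. Its liver mean was 0.14 below parental (adjusted p = 0.246 by limma; the smallest of the members there, and the 1 with an unadjusted p under 0.05, 0.0428). Its lung arrays lay above its liver arrays (0.20, adjusted p = 0.0550), and this difference came from its first row, at 7.83, 7.51, 7.05 and 8.23 in parental, 6.93, 7.29 and 7.19 in liver and 8.46, 8.24 and 8.66 in lung arrays (1.31, adjusted p = 0.0243 by limma over all rows). Its other 5 rows differed by -0.19 to 0.09, and lung against liver was 0.02 by the median of rows and -0.19 by the brightest row (adjusted p = 0.122), so the sign turned there.

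ATP5C1 ran from 11.50 to 11.68 in parental, 11.64 to 11.78 in liver and 11.70 to 11.83 in lung arrays, and was the member with the highest difference in liver derivatives (0.12, SE 0.07, adjusted p = 0.383 by limma). ATP5J2 (ATP5MF), measured by a single row, lay between 7.39 and 7.58 throughout. The mean of the 6 genes was 10.97 ± 0.06 in parental (SD, n = 4), 10.95 ± 0.02 in liver (n = 3) and 11.05 ± 0.04 in lung arrays (n = 3). The lung arrays lay above the liver arrays and overlapped the parental ones, and the lung mean was 0.014 above parental array 4. Quantile normalization raised the complex V difference between lung and parental arrays from 0.088 to 0.134, and the median of the 22 members from 0.006 to 0.077 with a median of all genes of -0.006 before and -0.003 after, so the size of this difference depends on the scaling.

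The groups did not overlap in 3 of 22 members for liver against parental (NDUFA9, ATP5B and COX15, all lower) against 20.2% of genes. In lung against parental they were 8 of 22, against 32.3%, with ATP5C1, ATP5F1, ATP5G2 and SDHC higher and NDUFA9, NDUFC2, ATP5J2 and COX15 lower. Between lung and liver they were 10 of 22, 8 of them higher in lung, against 46% of genes. Row by row, 0 of 151 member rows were called in liver derivatives against 2.2% of the 56949 rows with a gene (rows of several genes included), 16 in lung derivatives (7 higher and 9 lower) against 13.1%, and 15 between the derivatives (9 higher and 6 lower) against 12.6%. The 16 rows lay in 10 genes, of which NDUFV1 and NDUFA4L2 had called rows in both directions. How many of all genes had a called row was not counted, so the 10 have no share to be read against.

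Several of these called rows belonged to genes whose mean was not called. Row 4 of NDUFC2 was at 10.51, 10.35, 10.11 and 9.94 in parental, 10.11, 10.18 and 10.68 in liver and 9.50, 9.18 and 9.11 in lung arrays, below all others (-0.97 against parental, adjusted p = 0.0154 by limma over all rows). Row 1 of NDUFS3 went the other way, at 9.52, 9.44, 9.61 and 9.23 in parental, 9.62, 9.59 and 9.13 in liver and 9.94, 10.05 and 10.26 in lung arrays (0.63, adjusted p = 0.0315). In both rows the lung arrays did not overlap with the others, parental array 4 included.

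In NDUFV1, row 2 was higher in lung derivatives (0.34, adjusted p = 0.0444 by limma over all rows) and row 4 lower (-0.52, adjusted p = 0.0438). Row 2 of NDUFS5 was higher, at 11.73, 11.64, 11.73 and 11.96 in parental, 11.74, 11.81 and 11.64 in liver and 12.17, 12.24 and 12.17 in lung arrays (0.43, adjusted p = 0.0287). Row 3 of ATP5C1 was at 12.24, 12.22, 12.30 and 12.34 in parental, 12.64, 12.60 and 12.54 in liver and 12.69, 12.79 and 12.64 in lung arrays. It was called in lung derivatives (0.43, adjusted p = 0.0167) and not in liver derivatives (0.32, adjusted p = 0.128), although all arrays of both lay above all parental arrays. Row 3 of NDUFA9 was lower in lung derivatives (-0.36, adjusted p = 0.0460), and row 5 of ATP5B was higher in lung than in liver derivatives (0.55, adjusted p = 0.0450).

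The counts in lung derivatives moved with parental array 4 and with the model. Without that array 8 members were called by limma, against 41.4% of all genes: SDHC, ATP5C1, ATP5F1, ATP5G2, COX8A and UQCRH higher and COX15 and NDUFC2 lower. With a trend of the variance on the level and robust fitting 6 were called, against 31.8%: SDHC, ATP5C1, ATP5F1 and ATP5G2 higher, COX15 and NDUFC2 lower. In both counts the share of members called was below that of all genes. Against parental array 4 alone 0 were called by limma, and 271 of the 4713 genes were. In liver derivatives 0 members were called in every alternative run on gene means or rows, including each array left out. These runs share arrays, and those on gene means called 2.8% to 9.0% of all genes.

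**Figure D5:**
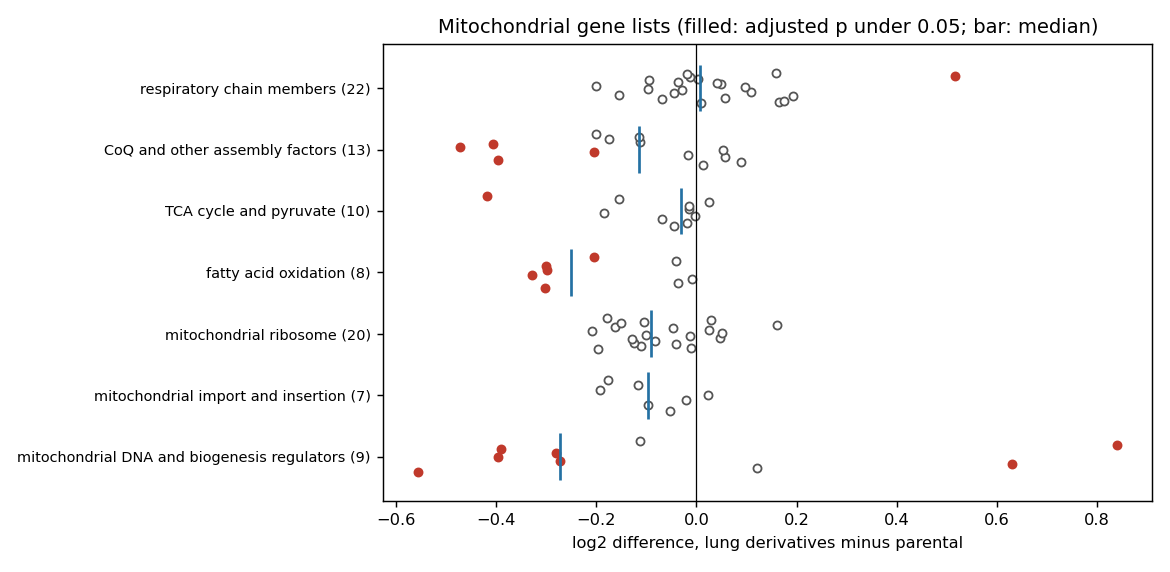
Log2 difference between lung derivatives and parental cells for each gene of the chain and of 6 other lists of mitochondrial genes, with the list median as a bar and called genes filled. The members centre on 0.006 with SDHC at 0.52. Of the 8 genes in the fatty acid oxidation list 5 lie filled on the lower side. Of the 9 genes in the regulator list, which includes the carriers UCP2 and UCP3, 5 lie lower and 2 higher.

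Other lists of mitochondrial genes are described beside the same shares of all genes. Together they held 67 genes, and 17 of these (25.4%) passed the test against parental cells in the lung group, with 2 higher and 15 lower, against 30.1% of all genes (12.9% higher and 17.3% lower), and 3 (4.48%) in liver derivatives, against 7.83%. Of 9 genes listed as regulators of mitochondrial DNA and biogenesis 5 were lower and 2 higher in lung derivatives (list median -0.273, all genes -0.006). This list also held the carriers UCP2 and UCP3, and UCP2 was 1 of the 2 higher genes. C10orf2, the mitochondrial DNA helicase Twinkle, fell by 0.56 (SE 0.14, adjusted p = 0.0147 by limma) and PPRC1, a coactivator related to PGC-1, by 0.40 (SE 0.08, adjusted p = 0.00639). TFAM, which packages and transcribes mitochondrial DNA, was at 11.46, 11.28, 11.26 and 11.25 in parental, 11.27, 11.24 and 11.32 in liver and 11.13, 10.92 and 11.04 in lung arrays, and was lower in lung than in liver derivatives (-0.24, adjusted p = 0.0473 by limma), though 0.07 higher by its brightest row. The carrier UCP2, which can lower the proton gradient, was higher in both kinds of derivative, at 9.62, 9.72, 9.63 and 9.93 in parental, 10.43, 10.38 and 10.34 in liver and 10.58, 10.50 and 10.61 in lung arrays. It rose by 0.66 in liver (SE 0.08, adjusted p = 0.000278 by limma) and by 0.84 in lung derivatives (SE 0.08, adjusted p = 5.74e-05), and by 0.64 over parental array 4 (adjusted p = 0.00259). The nuclear receptor ESRRG was called 0.63 higher in each (adjusted p = 0.00571 and 0.004 by limma), but it was dim in every array (5.30 to 6.38, under the 25th percentile of 6.8068), and by its brightest row the differences were 0.27 and -0.02 (adjusted p = 0.770 and 0.970).

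Of 8 genes listed under fatty acid oxidation, branched-chain enzymes included, 5 were lower in lung derivatives, beside 17.3% of all genes, and 0 were called in liver derivatives. They included ACADSB, a short branched-chain acyl-CoA dehydrogenase (-0.33, adjusted p = 0.00987 by limma, but 0.38 higher by its brightest row, adjusted p = 0.0329), and CPT1A, the carnitine transferase that admits long-chain fatty acids to mitochondria (-0.30, adjusted p = 0.00672). Of 13 genes listed under ubiquinone synthesis and assembly factors outside the rule 4 were lower in lung derivatives. Among them were COQ8A (-0.47), the complex I assembly factor FOXRED1 (-0.41, adjusted p = 0.00416 by limma) and the ATP synthase assembly factor ATPAF1 (-0.40). The list also held the ATP synthase genes ATP5MK and ATP5IF1. Of 10 citric acid cycle and pyruvate genes PC was higher in liver (0.33, adjusted p = 0.0262) and SUCLG2 lower in lung derivatives (-0.42, adjusted p = 0.00247 by limma). In lung derivatives 0 of 20 mitochondrial ribosome genes and 0 of 7 import genes were called by limma; 4 and 1 of them had an unadjusted p under 0.05, and 3 and 1 were called with the variance trend and robust fitting.

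These list counts moved with parental array 4 and with the choice of rows. Against that array alone 0 of the 8 oxidation genes and 0 of the 13 assembly and ubiquinone genes were called by limma. Of all 4713 genes 5.8% were (145 higher and 126 lower). Against parental array 4 CPT1A was at -0.24 and ACADSB at -0.28 (adjusted p = 0.137 and 0.165 by limma). Among the regulators 0 were lower and 2 higher against it, UCP2 and ESRRA, an orphan nuclear receptor named here after its value was seen (0.68, adjusted p = 0.00544; its level was 7.97 in parental array 4 and 8.63 to 8.86 in the other parental arrays, beside 8.61 to 8.69 in lung arrays), while ESRRG was not called (0.55, adjusted p = 0.105). C10orf2 was at 9.83 in parental array 4 while parental arrays 1 to 3 ran from 10.43 to 10.51, so that its lung mean was 0.08 below that array. SUCLG2 stayed called lower against parental array 4 (-0.44, adjusted p = 0.0413 by limma) and by its brightest row (-0.42, adjusted p = 0.00985 by limma). In the ribosome list 1 gene was called higher and 0 lower against parental array 4. By the brightest row of each gene 2 genes of the oxidation list were called higher and 0 lower. In the regulator list 1 gene, the carrier UCP2, was higher and 0 were lower. Of all 4713 genes 737 were called higher and 314 lower by the brightest row. Whether these lists changed more than the chain genes was not tested.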

How the data were processed

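RNA of 10 SW620 cultures had been hybridised to Affymetrix HG1.0ST chips. The deposited table holds log2 values made by the authors with RMA in oligo, per the submitters' processing notes; a version and a genome build are not given in the sources used here. It has 65535 rows with values from 2.55 to 13.994 and array medians from 8.52 to 8.596. Of these rows 54806 carry 1 symbol in the platform annotation, 2143 carry several and were left out of the gene means (the single-row tests kept them), and 8586 are unnamed here. Old symbols were updated through the RefSeq gene table (601 of 4727; 24 kept as listed), giving 4713 genes, each the mean of its rows (median 10). A mean over rows can hide rows that differ, so rows were also tested singly.

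limma 3.58.1 in R 4.3.3 was fitted with a coefficient per group over all 10 arrays, without covariates, two-sided, with Benjamini-Hochberg adjustment over all genes. The test was checked on simulated data. The number of arrays limits the precision. Members and lists were chosen with earlier results of these data known, and the array term for parental array 4 rests on a split seen in the data, not on a label. Values in every array are given for members called in a comparison and for the member of each complex with the largest change; from the other lists at most 4 called genes are named for each list and comparison. Alternatives were other row summaries (median, brightest row), leaving out dim rows (below 6.8068, the 25th percentile), quantile normalization, median centring, the array term, the replicate number as a block, a variance trend with robust fitting, fits of 2 groups and each array left out.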

Additional observations from a re-analysis of the deposited data

Results flagged for a closer look

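Parental array 4 stood far from the other parental arrays in NDUFV1 (its gap to the nearest array was 0.849 of the group's range) and in ATP5B (0.844), past Dixon's 95% critical value. These were 2 of 26 groups examined, and chance gives about 1 in 20. SDHC differed between the 2 kinds of derivative, by 0.56 log2 units in the limma test of lung against liver derivatives (adjusted p = 0.0156).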

How the results depend on the processing

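The values depend most on parental array 4, on how rows are joined and on scaling; where no value shows a cause, the cause was not tested. With the brightest row SDHC reversed (lung against parental -0.199, against liver -0.119), NDUFA4L2 reversed (1.055 and 1.468), 134 genes were called in liver and 2 members in lung against parental cells, and the complexes gave -0.083 (IV) and 0.049 (V) in liver against parental, -0.054 (II) and 0.038 (V) in lung against parental, and -0.029 (II), 0.107 (IV) and -0.011 (V) in lung against liver. With the median of rows 877 genes were called in lung against parental, where complexes II and V gave 0.303 and 0.029, and lung against liver gave 0.025 (I), 0.354 (II) and 0.053 (V). By the mean of rows complex II gave 0.161 and 0.167 in these comparisons, with SDHC the 1 of its 3 genes above 0. Quantile normalization gave 931 genes and 3 members in lung against parental with 0.038 (I), 0.246 (II), 0.001 (IV) and 0.134 (V), and 602 genes and 4 members in lung against liver with 0.069, 0.261, 0.021 and 0.160. Median centring gave 2 and 3 members. The array term gave 271 genes and 0 members in lung against parental with 0.036 (I), 0.076 (II), -0.010 (IV) and 0.014 (V), and 4 genes and 0 members in lung against liver with 0.081, 0.053, 0.019 and 0.008. Variance trend with robust fitting called 6 of 22 members in each lung comparison, against 31.8% (lung against parental) and 23.4% (lung against liver) of genes. In lung against liver this share of members was above that of all genes. Fits of 2 groups called 937 genes in lung against parental, and 4 members against 26.5% of genes in lung against liver. Leaving out dim rows called 3 members there, against 24.3% of genes. Tests per row found 10 members with a called row in each lung comparison, with no share of all genes counted beside it. Complex V without ATP5J2, chosen after seeing the data, was 0.147 in lung against liver. Leaving out each array gave 219 to 422 genes called in liver against parental, 832 to 1950 in lung against parental and 31 to 1523 in lung against liver, with 1 to 8 and 0 to 5 members in the lung comparisons. Of 1254 values of single members under alternatives 129 turned sign, 116 of them from a change under 0.1, a size chosen after seeing the data. The larger ones, besides SDHC and NDUFA4L2, were NDUFC2 with the median of rows (0.070 against parental, 0.209 against liver), ATP5L (0.006 in liver against parental, -0.194 in lung against liver) and UQCRH (-0.053 in lung against liver) with the brightest row, NDUFA4L2 without dim rows (0.104 in lung against liver), and, with the array term, UQCRH (-0.083 against parental, -0.155 against liver) and COX8A (-0.017 and -0.015).

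With the replicate number as a block, 348, 1788 and 1290 genes were called in the 3 comparisons, and 0, 5 and 2 members. Only the parental group has a replicate 4, so the block gives parental array 4 a coefficient of its own. The differences are then those without that array, such as 0.57 for SDHC in lung against parental. Deviations of same-numbered arrays correlated between -0.1538 and 0.1325, so the numbers do not pair the arrays.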
